A study of Mus musculus with 12 samples.

Results

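The regions described here are the 883 summits of MOF in wild-type mouse haematopoietic stem cells (HSC) that lay within 1 kb of an annotated end of exactly 1 protein-coding gene. MOF is the histone acetyltransferase encoded by Kat8. The wild-type HSC list held 1876 peaks, each deposited as a position of 1 bp (its summit), and 1850 of them were on chromosomes 1 to 19 and X. The 883 members made up 47.7% of these 1850 and belonged to 873 genes. Members were chosen by position alone: the summit lay within 1 kb of the start or the end of the gene as RefSeq annotates it on mm10, and no other protein-coding gene had an end in that window. Left out were summits whose 1 coding gene was a histone gene (14) or a cytosolic ribosomal protein gene (19). Of the other summits, 229 lay at the ends of 2 or more coding genes, 377 inside a coding gene away from its ends, and 328 outside coding genes. Some of the 229 lay at a histone or ribosomal protein gene beside another gene.

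The study mapped MOF by chromatin immunoprecipitation and sequencing (ChIP-seq) in bone marrow cells of C57BL/6 mice. The list described here came from 1 library of 15000 wild-type HSC, sorted as lineage-depleted cells with Sca-1 and Kit but without CD34 and Flt3, from pooled bones. It was set beside MOF lists of 15000 HSC of Mof -/+ animals, which carry 1 intact Mof allele, of 30000 wild-type megakaryocyte-erythroid progenitors (MEP) and of 30000 MEP of Mof -/+ animals, and beside a GATA1 list of HPC7, a mouse blood progenitor line grown with stem cell factor. The labels state no age or sex for the animals. Each group had 1 library, so no value below has a replicate check, and the number of reads behind a peak is unknown. The 5 lists held 3653 peaks in all.

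MOF adds an acetyl group to histone H4, chiefly at lysine 16, a mark that opens chromatin. It works in the MSL complex and in the NSL complex, and the NSL complex is known for binding the promoters of housekeeping genes. HSC give rise to all blood lineages, and MEP are the progenitors of red cells and platelets.

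The promoters of 9 members show the sequence before the start, which holds the summit at all but Gorasp2 and Kat8. Each line gives the 250 bases upstream of the gene's annotated start, 5′ to 3′ on the gene's strand, from RefSeq's GRCm38.p6 (the mm10 assembly). Capitals mark matches, on either strand, to 10 short motifs that were searched, among them the GC box GGGCGG, the ETS site CCGGAAG, the YY1 site AAGATGGC and the CCAAT box CCAAT. Kat8 was shown because it encodes MOF, and the next 6 because they had high peak values. They come from the 10 highest named members with a summit in the promoter, at most 2 from a functional list (or from the genes in no list), and were kept where the start is the gene's outermost one. Actr3 and Cyren were added, after their values were seen, as the highest other members with a summit in the promoter, an outermost start and an ETS site in these bases.
Kat8 (chr7:127912267-127912516, plus strand): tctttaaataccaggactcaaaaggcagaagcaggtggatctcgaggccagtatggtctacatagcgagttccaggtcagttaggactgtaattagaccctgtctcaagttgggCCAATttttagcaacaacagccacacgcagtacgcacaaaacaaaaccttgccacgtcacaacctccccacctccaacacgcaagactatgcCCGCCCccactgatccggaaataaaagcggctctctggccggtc
Nme1 (chr11:93968273-93968522, minus strand): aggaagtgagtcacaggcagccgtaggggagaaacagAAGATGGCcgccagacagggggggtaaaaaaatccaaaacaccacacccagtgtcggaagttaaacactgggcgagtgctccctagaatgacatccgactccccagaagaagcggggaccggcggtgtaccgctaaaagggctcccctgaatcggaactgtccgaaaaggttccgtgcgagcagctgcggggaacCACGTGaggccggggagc
Tpt1 (chr14:75845006-75845255, plus strand): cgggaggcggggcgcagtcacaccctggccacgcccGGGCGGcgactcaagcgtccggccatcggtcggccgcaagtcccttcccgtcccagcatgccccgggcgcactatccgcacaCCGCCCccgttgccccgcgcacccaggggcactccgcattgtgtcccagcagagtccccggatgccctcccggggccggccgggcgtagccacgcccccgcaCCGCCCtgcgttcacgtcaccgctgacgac
Get4 (chr5:139252074-139252323, plus strand): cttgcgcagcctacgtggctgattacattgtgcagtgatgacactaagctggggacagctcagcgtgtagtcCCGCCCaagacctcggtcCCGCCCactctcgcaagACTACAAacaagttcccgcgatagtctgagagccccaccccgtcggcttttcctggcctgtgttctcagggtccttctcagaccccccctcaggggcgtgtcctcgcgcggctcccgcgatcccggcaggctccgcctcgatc
Msh6 (chr17:87974800-87975049, plus strand): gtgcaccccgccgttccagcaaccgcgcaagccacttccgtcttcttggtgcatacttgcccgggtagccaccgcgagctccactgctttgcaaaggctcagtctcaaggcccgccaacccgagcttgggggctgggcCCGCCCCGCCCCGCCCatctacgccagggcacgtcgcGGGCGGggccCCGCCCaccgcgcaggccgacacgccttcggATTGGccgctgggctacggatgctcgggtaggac
Gorasp2 (chr2:70661259-70661508, plus strand): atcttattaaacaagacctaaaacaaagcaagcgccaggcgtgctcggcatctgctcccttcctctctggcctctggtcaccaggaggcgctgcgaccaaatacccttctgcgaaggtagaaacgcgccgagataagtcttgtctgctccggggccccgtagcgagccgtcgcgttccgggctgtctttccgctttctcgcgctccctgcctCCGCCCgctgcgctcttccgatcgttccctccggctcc
Smarcd1 (chr15:99702037-99702286, plus strand): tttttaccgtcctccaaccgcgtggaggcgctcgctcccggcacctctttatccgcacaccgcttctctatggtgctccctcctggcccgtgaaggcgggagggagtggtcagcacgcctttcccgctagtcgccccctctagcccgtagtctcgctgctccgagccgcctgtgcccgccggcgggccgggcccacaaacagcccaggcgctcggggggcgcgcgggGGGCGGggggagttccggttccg
Actr3 (chr1:125435728-125435977, minus strand): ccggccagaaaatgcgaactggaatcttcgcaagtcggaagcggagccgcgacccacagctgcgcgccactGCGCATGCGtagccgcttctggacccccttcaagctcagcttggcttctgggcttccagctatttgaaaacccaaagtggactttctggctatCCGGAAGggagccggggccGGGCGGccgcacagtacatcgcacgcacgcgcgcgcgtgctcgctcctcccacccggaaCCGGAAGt
Cyren (chr6:34878066-34878315, minus strand): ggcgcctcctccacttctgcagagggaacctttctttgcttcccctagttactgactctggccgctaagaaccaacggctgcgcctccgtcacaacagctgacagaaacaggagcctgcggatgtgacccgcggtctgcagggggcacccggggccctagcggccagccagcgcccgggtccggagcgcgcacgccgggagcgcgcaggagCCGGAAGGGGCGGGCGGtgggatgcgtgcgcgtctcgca

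In these 250 bases the summit lay 125 bases before the start at Nme1, 60 at Tpt1, 34 at Get4, 224 at Msh6, 80 at Smarcd1, 29 at Actr3 and 174 at Cyren. At Gorasp2 and Kat8 it lay 1 and 87 bases past the start, so outside the printed bases. Of the 9 stretches, that of Tpt1 was the richest in G and C, at 75.6%, and that of Kat8 the poorest, at 51.2% with 10 CpG. Nme1 held the YY1 site and an E-box (CACGTG) and no GC box. Actr3 held 2 ETS sites, an NRF1 site (GCGCATGCG) and a GC box.

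Each peak of the wild-type list carries a value in its column 5, which the authors deposited without a heading. Its smallest value among members was 1.31 and just above the −log10 of 0.05, so it is read here as the peak caller's −log10 q. It describes how far a peak stood above background and is not a level of MOF. The members' median was 5.24, with quartiles of 3.73 and 7.44 and a maximum of 44.8. The other summits of the list had a median of 5.29 and quartiles of 3.802 and 7.448. Values of 10 or more were held by 90 members (10.2%) and by 110 other summits (11.4%). Members thus spread over nearly the whole range of the list, whose highest value, 57.1, belonged to a summit inside a gene.

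**Figure D1:**
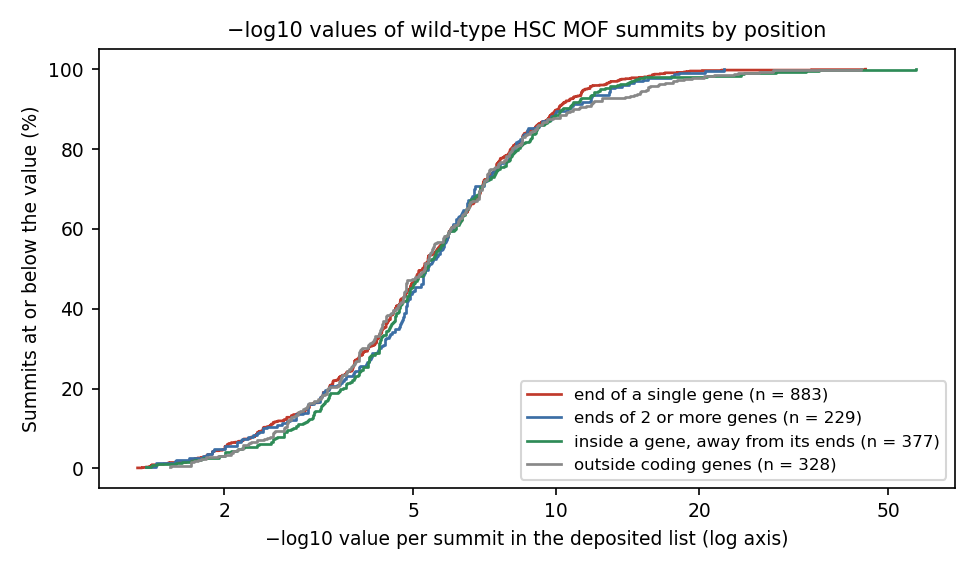
Cumulative share of wild-type HSC MOF summits (y axis, %) by their deposited −log10 value (x axis, log scale), in 4 classes of position. The 4 curves lie close together up to a value of about 10, with medians between 5.24 and 5.37.

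The summit of the highest member was in Lars2, the mitochondrial leucyl-tRNA synthetase, at chr9:123462003, 672 bases before the transcript end of the gene (44.8). Kat8 came next, with a summit at chr7:127912604, 87 bases past its start (34.4). Among members, the second highest peak of the MOF list was thus at the start of the gene that encodes MOF. The summits at Lars2 and Kat8 also overlapped GATA1 intervals in HPC7. Whether these 2 peaks are particular to MOF was not tested. The member summit was not the only summit along Kat8. Another lay inside the gene away from its ends, and another within 1 kb of its other end, beside Prss8. Both had values above that of Nme1, and neither was a member. Whether the summits along Kat8 are separate sites was not tested. Nme1, a nucleoside diphosphate kinase, followed at 22.2 and Tpt1, the translationally controlled tumour protein, at 20.3. Gdf15, a stress-induced cytokine, had a summit of 19.1 that lay 474 bases before its transcript end, and the predicted gene Gm32584 one of 18.8 at 485 bases before its end.

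The rest of the 20 highest had values from 18.6 to 14.4. Scaf11, a splicing-associated factor, had 18.6, and Get4, which helps to insert membrane proteins, 17.96. Msh6, a DNA mismatch repair protein, and Gorasp2, which stacks the Golgi, both had 16.9. Fem1b, a substrate receptor of a ubiquitin ligase, had 16.5 and the lipid enzyme gene Pafah2 had 16.1. Fchsd2, the TRAPP complex gene Trappc9 and the Golgi trafficking gene Yif1b shared a value of 15.9. Zfp335 had 15.7, Rasa1, which switches Ras off, 15.6, Dhrs11 15.3, Tsc22d4 14.95 and Smarcd1, a subunit of the SWI/SNF remodeller, 14.4. Of these 20 summits, 15 were on the start side of the gene, 3 on the end side, and 2 at genes whose strand was not in the table used here.

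The 5 lowest members were at Dnaja1, a heat shock protein gene (1.31), Dusp1, a phosphatase gene (1.34), Aftph (1.37), Pdcl (1.39) and the deubiquitinase gene Usp3 (1.40). Usp3 also had a peak in wild-type MEP, with a value of 5.51 in that list.

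Members sat at gene starts rather than transcript ends. Of the 738 members at a gene with a known strand, 711 were nearer the start (96.3%, 95% Wilson interval 94.7 to 97.5) and 27 nearer the transcript end. The intervals given here cover counting error only. The summits were centred on the start itself: the median offset was 9 bp past it, with quartiles at -101 and 106 bp. Within 100 bp of the start lay 344 of the 711 (48.4%), within 250 bp 575 (80.9%) and within 500 bp 654 (92.0%). Upstream and downstream were used about equally, with 341 summits before the start and 370 at or past it.

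**Figure D2:**
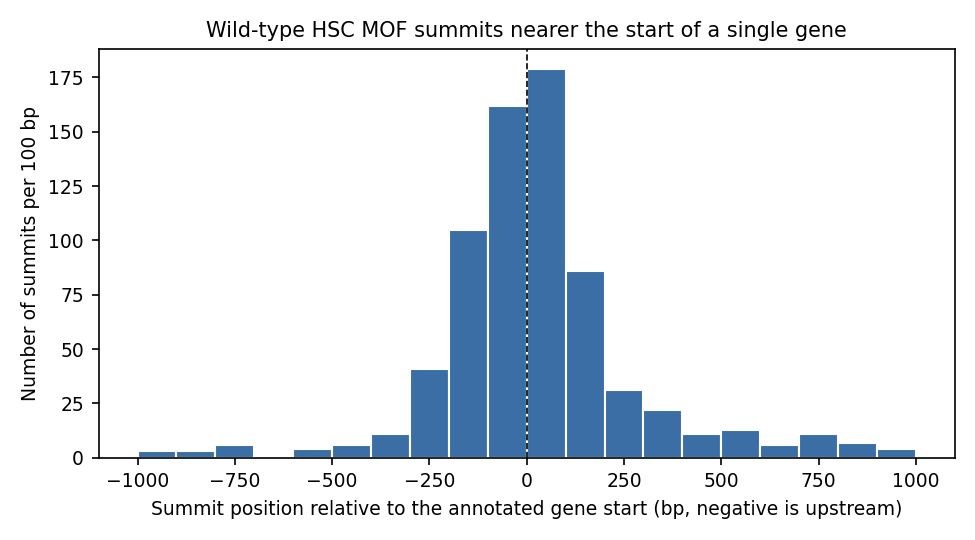
Number of start-side summits (y axis) in bins of 100 bp by their position relative to the annotated start of the gene (x axis, bp, negative upstream). The 711 summits form 1 peak around the start, and 575 of them lie within 250 bp of it.

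The gene start used above is the outermost one annotated. Measured to the nearest of the gene's starts in the tables used here, the outermost included, the median offset was -14 bp, with quartiles at -114.5 and 61.5 bp. Some summits far from the outermost start lay near another one: of the 136 start-side members farther than 250 bp, 52 were within 250 bp of a different annotated start of the same gene. Yif1b was such a gene, since its summit lay 708 bp past the outermost start and 21 bp before another. Zfp335 was a second, at 878 bp and 43 bp past its respective starts. For the 145 members without a known strand, the median distance to the nearer end of the gene was 125 bp, and 111 were within 250 bp.

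The strength of a peak and its place at the start were not tied in a clear order. In 4 groups of members of nearly equal size, from the lowest to the highest value, the share of start-side summits within 100 bp of the start was 49.7%, 53.8%, 46.2% and 43.6%. The share within 250 bp was 80.0%, 83.5%, 78.0% and 81.8%.

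The 27 end-side members were a mixed set. Of these, 12 lay inside the gene and 15 past its end, and their median value was 4.85. Besides Lars2, Gdf15 and Gm32584, the highest were at Zfp771 (10.3), Gm40469 (9.56), Borcs6 (9.49), Sertad1 (9.13) and Gm40364 (9.02). Eef1b2, an elongation factor gene, had a summit 722 bp past its end (6.92). An annotated start of some other gene lay within 1 kb of 2 of the 27 (7.41%) and of 114 of the 711 start-side members (16.03%).

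Since the rule counted protein-coding genes alone, non-coding genes could share the window. An end of a non-coding gene lay within 1 kb of 164 members (18.6%). A long non-coding RNA gene was in the window of 136, a transfer RNA gene of 12, a microRNA gene of 8, a small nuclear RNA gene of 6 and a small nucleolar RNA gene of 1. At these sites the data do not say which gene the peak belongs to. No such share is given here for the other summits or for gene starts at large, so these counts describe members alone.

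At the edge of the window, the 3 members farthest from an end were at Nfe2l2 (990 bp, value 5.54), Cep95 (979 bp, 1.83) and Eapp (968 bp, 9.68). The nearest summits just outside were at Srsf1 (1030 bp, 3.68), Cfl1 (1057 bp, 9.75) and Zfp451 (1065 bp, 7.82). Values on either side of the limit covered a similar range.

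Member summits were repeated at 9 genes. Fam136a had 3, with values of 7.40, 3.31 and 2.39, and Gm32584, Srsf5, Iqgap2, BC005537, Pfkl, Wbp2, Ncl and Mnt had 2 each. At Srsf5, a splicing regulator, the summits lay 33 bp (6.87) and 575 bp (5.78) past the start. At Ncl, which encodes nucleolin, they lay 13 bp (2.42) and 618 bp (3.02) past the start. At Mnt, a MYC antagonist, they lay 4 bp (1.41) and 587 bp (2.48) before the start. At Ncl and at Mnt it was the lower summit, the one at the start, that overlapped a wild-type MEP peak, with MEP values of 4.54 and 4.70.

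Function was described with 29 gene lists, in which a gene counted once. Of all 21437 protein-coding genes on these chromosomes that were left after histone and ribosomal protein genes were set aside, 4.07% had a member summit, and each count below is read against that share. The lists took up 551 of the 883 members, and 332 were in none. In 14 lists the 95% Wilson interval of the share lay above 4.07%, in 2 below it, and in 13 it included it. The lists were drawn up with earlier results of these data known, and the intervals were not adjusted for the number of lists. No list was tested for enrichment. The CpG content of promoters, which was higher at members than at coding genes at large, was not balanced between lists.

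The genes of MOF's own complexes had 4 of 15 with a member summit (26.7%, 10.9 to 51.95). These were Kat8 itself and 3 genes of the NSL complex. Kansl3 had a summit 25 bp past its start (6.87), Mcrs1 one 112 bp before it (6.81) and Kansl2 one 604 bp past it (3.76). Of the 4, Kat8 alone overlapped peaks of other lists, and it did so in all 4 of those lists, GATA1 in HPC7 included.

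In 4 lists of genes that handle RNA and build or run the ribosome, the interval of the share lay above 4.07%. Splicing and hnRNP genes had 41 of 257 (15.95%, 11.98 to 20.9), ribosome assembly genes 22 of 143 (15.4%, 10.4 to 22.2), translation factors 13 of 86 (15.1%, 9.05 to 24.2) and genes of RNA processing, decay and export 25 of 196 (12.8%, 8.79 to 18.2). Together these 4 lists held 101 of 682 genes (14.8%) and 103 summits. Genes of cytosolic tRNA synthetases and tRNA modification, which are not in that sum, had 4 of 91 (4.40%, 1.72 to 10.8). Their interval included 4.07%.

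Among splicing genes, the value was 18.6 at Scaf11, 11.8 at Ddx20, a helicase of the SMN complex, and 11.3 at Srsf2, an SR protein, while Isy1 had 10.9 and Snrpe, a core snRNP protein, 10.7. The median over the 42 summits of the list was 5.93. All 37 with a known strand were on the start side, 32 of them within 250 bp. Srsf2 overlapped a MEP peak, with a MEP value of 9.45.

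Ribosome assembly genes had a lower median, 4.19 over 23 summits. Their highest members were Gar1 of the H/ACA snoRNP (11.3), Polr1b, a subunit of RNA polymerase I (11.2), Nol7 (9.71), Heatr1 (8.69) and Surf6 (6.25). Of 20 with a known strand, all were on the start side and 19 were within 250 bp of the start.

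Translation factors had a median of 6.59 over 13 summits. Eef2, the translocation factor of elongation, had 11.9 with a summit 53 bp past its start, and the poly(A)-binding protein gene Pabpc1 had 8.14. Dohh (7.94) and Dhps (6.89), the pair of enzymes that make the hypusine residue of eIF5A, both had a member summit, and so did Eif5a itself. Among RNA processing genes, Smg6, an endonuclease of nonsense-mediated decay, had 12.8, Ints6 of the Integrator complex 11.3, Tut7, a terminal uridylyltransferase, 11.2, Zc3h7a 8.83 and Virma, of the m6A writer, 7.79.

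The transcription machinery had 19 of 167 genes (11.4%, 7.41 to 17.1). Polr3e, a subunit of RNA polymerase III, had 11.3, and Polr2a, the largest subunit of RNA polymerase II, 8.29. The Mediator genes Med13 and Med16 had 8.48 and 8.21, and Gtf2b, which encodes TFIIB, 7.73.

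Chromatin regulators had 31 of 318 genes (9.75%, 6.95 to 13.5) with a median of 5.80. After Smarcd1 came Hdgf (14), the H3K4 methyltransferase gene Setd1a (13.01), Brpf1, a scaffold of MOZ-type acetyltransferases (11.3), and Hmgn1 (11). Brpf1 overlapped a MEP peak with a MEP value of 14.3. Ezh2 (4.03) and Eed (5.94), 2 core subunits of the Polycomb repressive complex PRC2, both had a member summit. They were picked after their values were seen and do not speak for the rest of that complex.

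Genes of nuclear transport had 9 of 70 (12.9%, 6.91 to 22.7), led by the export receptor gene Cse1l at 9.06. Protein folding and stress response genes had 23 of 200 (11.5%, 7.79 to 16.7). After Tpt1 and Gdf15 the highest were Dnajc13 (10.9), Tcp1 of the TRiC chaperonin (8.55) and Dnajc16 (8.20). Genes of the cell cycle and division had 22 of 266 (8.27%, 5.53 to 12.2), led by Cenps at 9.78, and those of DNA replication and repair 16 of 232 (6.90%, 4.29 to 10.9), with Parp2 at 11.4 and Rrm1, a subunit of ribonucleotide reductase, at 10.1 after Msh6.

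Vesicle traffic and lysosome genes had 45 of 580 (7.76%, 5.85 to 10.2) and ubiquitin, SUMO and proteasome genes 45 of 627 (7.18%, 5.41 to 9.47). Arl2 had 11.8 and Rab11b 10.6 in the former. Fbxo34 had 11.6, Birc2 9.77 and the F-box gene Fbxw7 9.68 in the latter. Kinases, phosphatases and small GTPases had 35 of 608 (5.76%, 4.17 to 7.90), where Stk4, a Hippo pathway kinase, had 11.5 and Dusp2 11.4 after Rasa1.

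In the mitochondrial lists the interval included 4.07%. Mitochondrial translation had 9 of 118 (7.63%, 4.06 to 13.9), oxidative phosphorylation 6 of 139 (4.32%, 1.99 to 9.10) and other mitochondrial genes 6 of 136 (4.41%, 2.04 to 9.29). Opa1, which fuses inner membranes, had 11.96, Mrpl20 11.4, Mtrf1l 11.3 and Cox20 10.5. Metabolic enzymes had 22 of 539 (4.08%, 2.71 to 6.10). The shares of all lists leave out summits at the ends of 2 or more coding genes. Some of those summits lay at mitochondrial genes, such as Mrps16, Mrpl51, Uqcrh and Ndufa7. How far this lowers the share of a list was not tested.

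The lowest share of a list with any member summit was that of receptors, cytokines and immune response genes, with 6 of 2206 (0.272%, 0.125 to 0.592). Among them were Tnfaip3, an inhibitor of NF-κB signalling, at 8.87, H2-DMa at 6.98 and Ifngr1, a chain of the interferon gamma receptor, at 5.37. A gene counted only in the first list that held its symbol, so some genes of this kind were counted elsewhere. Gdf15 and Cxcr4 were in other lists, and Clec2d (13.7) was not in this one. The share thus describes the list as drawn up and not all receptor, cytokine or immune genes. Genes named by structure or clone alone had 61 of 2571 (2.37%, 1.85 to 3.04), and transporters and channels 19 of 688 (2.76%, 1.78 to 4.27). The interval included 4.07% for sequence-specific transcription factors, with 20 of 371 (5.39%, 3.52 to 8.18), and for C2H2 zinc finger genes, with 19 of 492 (3.86%, 2.49 to 5.95).

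**Figure D3:**
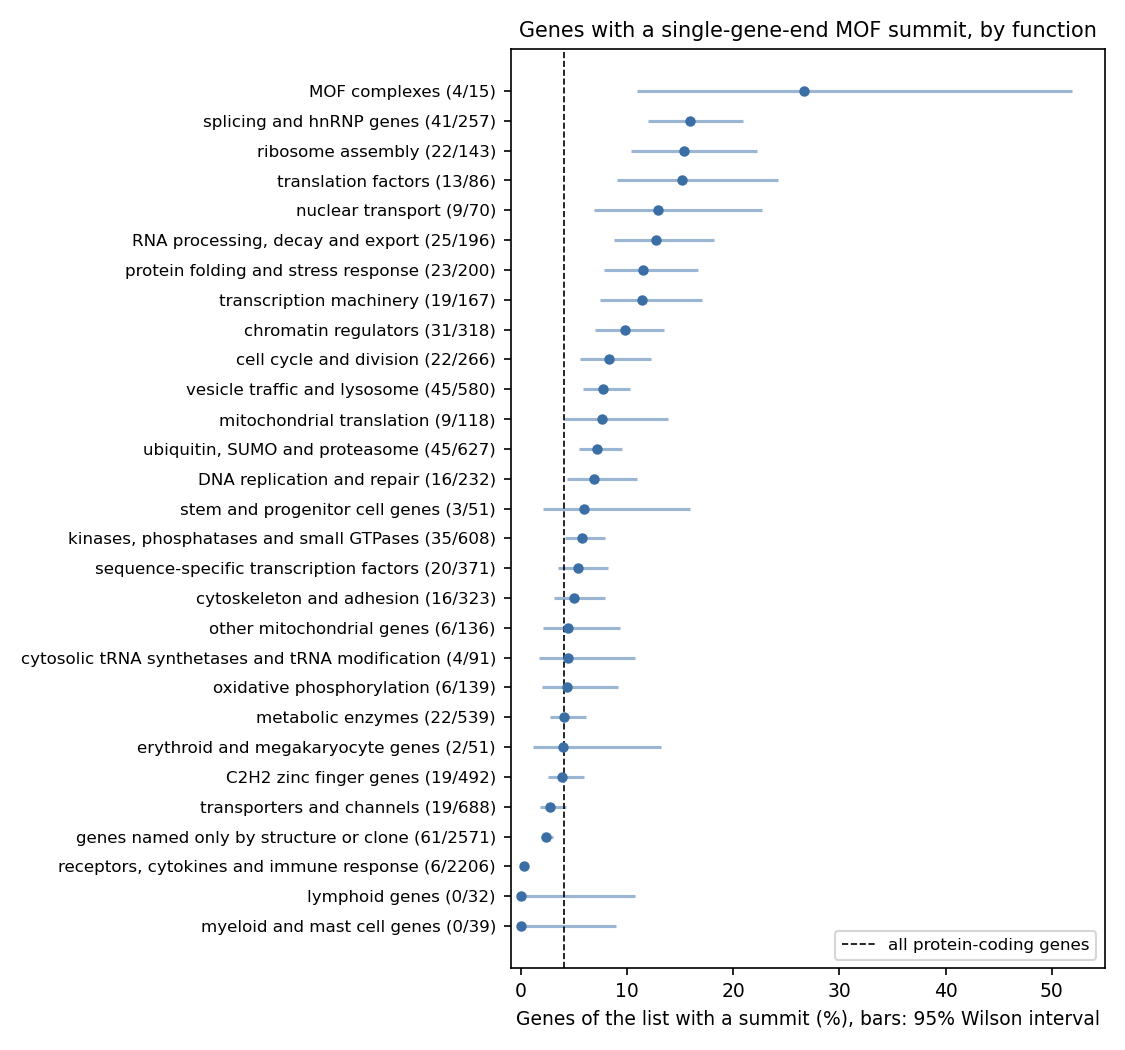
Share of the genes of each of the 29 lists that have a member summit (x axis, %; genes with a summit over genes in brackets), with 95% Wilson intervals and a dashed line at the 4.07% of all protein-coding genes. Splicing, ribosome assembly and translation factor genes lie at 15.1% to 15.95%, and receptors, cytokines and immune response genes at 0.272%.

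A list of peaks does not measure expression, so the identity of the sorted cells could be looked at through the genes that carry a peak and in no other way. Of 51 genes that mark stem and progenitor cells, 3 had a member summit (5.88%, 2.02 to 15.9). These were Lyl1 (7.25) and Hlf (3.30), which encode transcription factors, and the chemokine receptor gene Cxcr4 (2.67). Of 51 erythroid and megakaryocyte genes, 2 had one (3.92%, 1.08 to 13.2), namely Nfe2 (6.53) and Zfpm1, a cofactor of GATA1 (5.99), which also overlapped a MEP peak (8.28). None of 39 myeloid and mast cell genes and none of 32 lymphoid genes had a member summit. Counting summits at the ends of several genes added no gene to these 4 lists. The marker genes thus give no measure of how pure the sorted cells were.

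Members were spread over all chromosomes. The share of coding genes with a member summit ran from 1.27% on chromosome X (12 of 942 genes) and 2.76% on chromosome 2 to 5.51% on chromosome 11 (88 of 1597) and 5.63% on chromosome 10. The genes with a member summit had a median length of 22199 bp, and all coding genes 17634 bp.

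The sequence around the starts was rich in G, C and CpG. RefSeq promoters of 300 bases, from 250 before to 50 past a start, were available for 683 member genes with a summit within 1 kb of the promoter's start. Their median G and C content was 64.3% (quartiles 59.0 and 70.0) and their median number of CpG 26 (20 to 33). For all 20865 promoters of coding genes in the table, with several for some genes, the medians were 56.7% and 13 CpG. At least 20 CpG were present in 76.1% of member promoters and in 36.3% of all.

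Composition did not follow the value of the peak. Of these 4 groups, the one with the highest values had a median G and C content of 64.7% and the one with the lowest 65.3%, with 26 CpG in both.

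Motif shares followed from a plain search of these 300 bases for exact letters on both strands. Matches of different motifs may overlap, and a match is not a binding site. The GC box GGGCGG, known for Sp1, was in 75.5% of member promoters (95% Wilson interval 72.2 to 78.6) and 46.7% of all promoters. The ETS site CCGGAAG was in 25.6% (22.5 to 29.0) and 11.7%, the YY1 site AAGATGGC in 6.59% and 3.05%, and the E-box CACGTG, known for MYC and USF factors, in 13.8% and 7.94%. The NRF1 site GCGCATGCG was in 3.95% and 2.37%, and the CRE TGACGTCA in 3.66% and 2.23%. The core ACTACAA of the ZNF143 site was in 4.83% and 3.65%, and CCAAT, known for NF-Y, in 36.5% and 38.4%. The GATA core TGATAA was in 2.49% and 7.52%, and the TATA box TATAAA in 6.44% and 12.5%. Of the 683 promoters, 43 held none of the 10 motifs.

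Much of this pattern was shared by CpG-rich promoters in general. Among promoters with at least 20 CpG, a limit chosen after the composition was seen, the GC box was in 83.1% of member promoters and 81.5% of all, and the NRF1 site in 4.62% and 4.43%. The GATA core was in 1.35% and 1.89%. The ETS site was still in 26.0% of member promoters (22.4 to 29.9) beside 20.2% of all, and the YY1 site in 7.12% (5.21 to 9.65) beside 4.55%. The order turned for the TATA box, which was in 5.58% of member promoters and 3.58% of all.

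**Figure D4:**
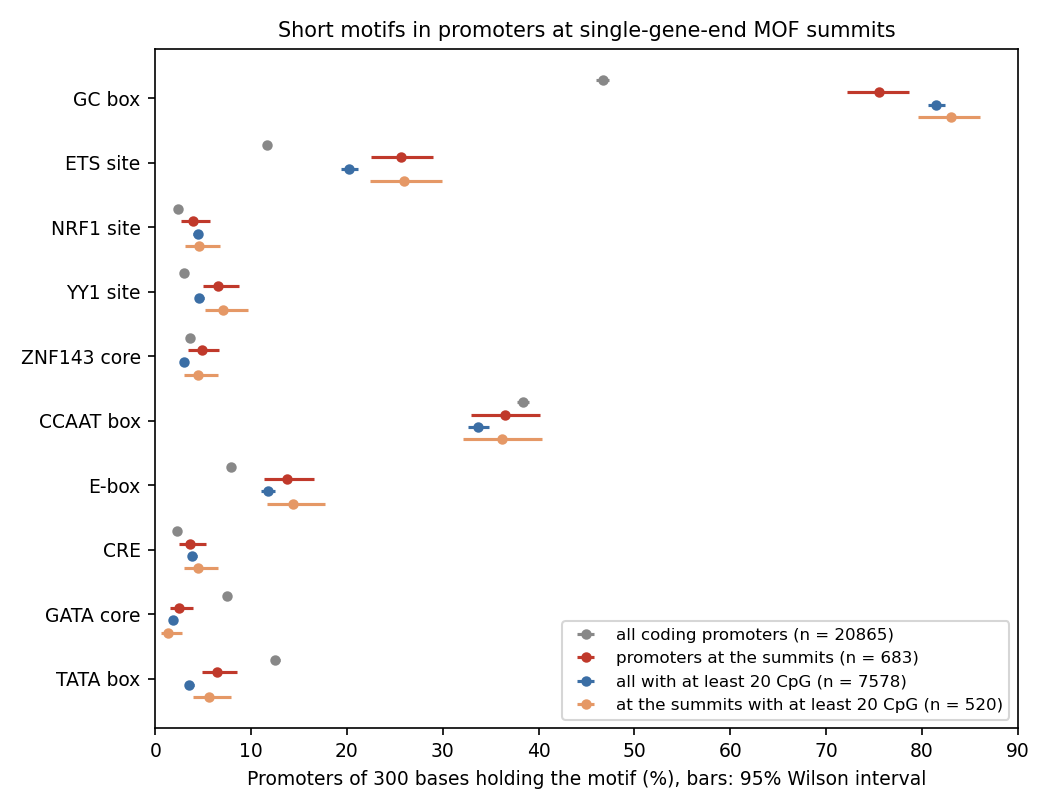
Share of promoters of 300 bases holding each of 10 motifs (x axis, %), for all coding promoters, the 683 promoters at member summits, and the promoters of each set with at least 20 CpG, with 95% Wilson intervals. The ETS site is in 25.6% of promoters at the summits and 11.7% of all, and in 26.0% and 20.2% of those with at least 20 CpG.

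Most members were found in no other list: 767 of the 883 (86.9%) overlapped no peak of the other 4. The share was close to that over all 1850 summits (1562, 84.4%) and was 82.2% over the 967 other summits. An overlap was counted where summits extended by 150 bp on each side, or the deposited intervals, shared at least 1 bp. Each comparison below sets peaks of 1 library against peaks of the same library, so the tests speak of the peaks in a list and not of the conditions. The 6 Fisher's exact tests were two-sided and adjusted together by the method of Benjamini and Hochberg.

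Of the members, 102 (11.6%, 9.61 to 13.8) overlapped a wild-type MEP peak, where the share over all 1850 summits was 14.1%. The share over the other 967 summits was 16.4% (159 summits), for an odds ratio of 0.664 (0.503 to 0.874, adjusted p = 0.0052 by Fisher's exact test). That difference depended on what the other summits hold. The left-out summits, each at 1 histone or ribosomal protein gene, had 57.6% (19 of 33). Without these the others had 14.99% (140 of 934) and the exact test was not passed (adjusted p = 0.065). Summits at such a gene beside another coding gene stayed among the 934. Without the summits found in 3 or 4 of the other lists, 2 of which were members, the shares were 11.4% and 13.97% and it was not passed either (exact test, adjusted p = 0.32). Over all alternatives tried, the adjusted p of this exact test ran from 0.0017 to 0.32. Summits at the ends of 2 or more genes had 16.2% (37 of 229), and members did not differ from them past the threshold in the exact test (odds ratio 0.678, 0.445 to 1.05, adjusted p = 0.11). With summits extended by 500 bp that difference did pass (12.6% and 20.1%, exact test, adjusted p = 0.0081, over all alternatives 0.0081 to 0.66). The 229 included summits at histone and ribosomal protein genes, which members did not. The part of those summits in this difference was not tested.

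Where a member was shared with MEP, the summits lay close together. Their median distance was 77.5 bp (quartiles 34.0 and 129.75, maximum 281), and 61 of the 102 were within 100 bp. Shared members had a median HSC value of 6.15 and a median MEP value of 5.51, while members not shared had a median of 5.12. The share found in MEP was 7.24%, 12.2%, 11.8% and 14.9% in the 4 groups of members from the lowest to the highest value. Across the 102 shared members, which come from the same pair of libraries, the rank correlation of both values was 0.176.

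The highest of the shared members were Lars2, with 44.8 in HSC and 39.4 in MEP, Kat8 with 34.4 and 78.1, Nme1 with 22.2 and 8.74, and the Gm32584 summit with 18.8 and 9.24. Get4 had 17.96 and 3.71, Zfp335 15.7 and 5.21, and Pim1, a kinase gene downstream of cytokine receptors, 14.3 and 4.88. Gtpbp6 had 13.02 and 3.68, Crocc 12.9 and 7.23, and Actr3, a subunit of the actin-nucleating ARP2/3 complex, 12.9 and 3.62. Of the 10, Kat8 alone had the higher value in MEP, but 39 of all 102 did, and values of separately called lists are not on a common scale.

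Of the members, 22 (2.49%, 1.65 to 3.74) overlapped an interval of Mof -/+ HSC, where the share over all summits was 4.05%. The other summits had 5.48% (53 of 967), for an odds ratio of 0.441 (0.253 to 0.745, adjusted p = 0.0039 by Fisher's exact test). Without the summits found in 3 or 4 of the other lists the shares were 2.27% and 2.88% (exact test, adjusted p = 0.69, over all alternatives 0.00037 to 0.69). Those summits overlap the other lists by construction, and most of them were not members. Summits at the ends of 2 or more genes had 1.75% (4 of 229, exact test, adjusted p = 0.63). The Mof -/+ HSC list held 338 peaks against 1876 of wild-type HSC, and a site that is absent from it was not shown to be lost.

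The 22 belonged to 21 genes, and 18 of them were on the start side. Kat8 had a fold enrichment of 13.9 and a −log10 q of 29.3 in the Mof -/+ list, and Lars2 4.88 and 46.4, as deposited by the authors. Gm32584 appeared with both of its summits (−log10 q of 20.5 and 7.99), and Gorasp2 had a fold of 7.68 with a −log10 q of 10.4. Zfp36l2, an RNA decay factor, had 7.37 and 8.99. Among the others were Poc5 (6.81 and 6.91), Nptn (6.57 and 6.53), the transcriptional coregulator gene Zmiz1 (6.41 and 6.29), Med13 (6.52 and 6.11) and Gm40364 (3.21 and 6.11).

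The remaining overlaps had lower −log10 q values in Mof -/+ HSC. They were 5.70 at Hjurp, the centromere histone chaperone, 5.64 at Apba1, 5.45 at Sh3glb1, 4.82 at Golga5 and at Smchd1, a chromosome-structure protein of X inactivation, 4.21 at Raver1, 3.84 at Adam17, a sheddase, and at the SUMO ligase gene Pias1, 2.43 at Gm13272, 2.35 at Dnpep and 1.82 at Zswim6. The median over the 22 was 5.90, and over the whole Mof -/+ list 7.66. In the wild-type list the 22 had a median value of 6.13. In the 4 groups from the lowest to the highest wild-type value, 1, 4, 8 and 9 members had such an overlap. Of the 22, 8 also overlapped a wild-type MEP peak.

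Overlap with GATA1 in HPC7 was rare. It was found for 2 members (0.227%, 0.0621 to 0.822), beside 1.84% of all summits and 3.31% of the other summits (32 of 967), for an odds ratio of 0.0663 (0.00769 to 0.262, adjusted p = 1.1e-06 by Fisher's exact test). Summits outside coding genes had 7.01% and those inside genes 2.12%. Of the 34 GATA1 overlaps in the whole list, all but 3 were at summits found in 3 or 4 of the other lists, and without these the shares were 0 of 881 and 0.320% (exact test, adjusted p = 0.50, over all alternatives 2.8e-07 to 0.50). Summits at the ends of 2 or more genes had 1 of 229 (0.437%, exact test, adjusted p = 0.60).

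The members that overlapped GATA1 were those with the highest values, Lars2 and Kat8, and they were also the 2 members (0.227%, beside 0.865% of all summits) that overlapped an interval of Mof -/+ MEP. In that list Kat8 had a fold of 7.00 with a −log10 q of 88.7, and Lars2 3.33 with 9.06. Both sites were thus present in all 5 lists, GATA1 in a different cell included. The part that features shared by all libraries play in these peaks was not tested.

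**Figure D5:**
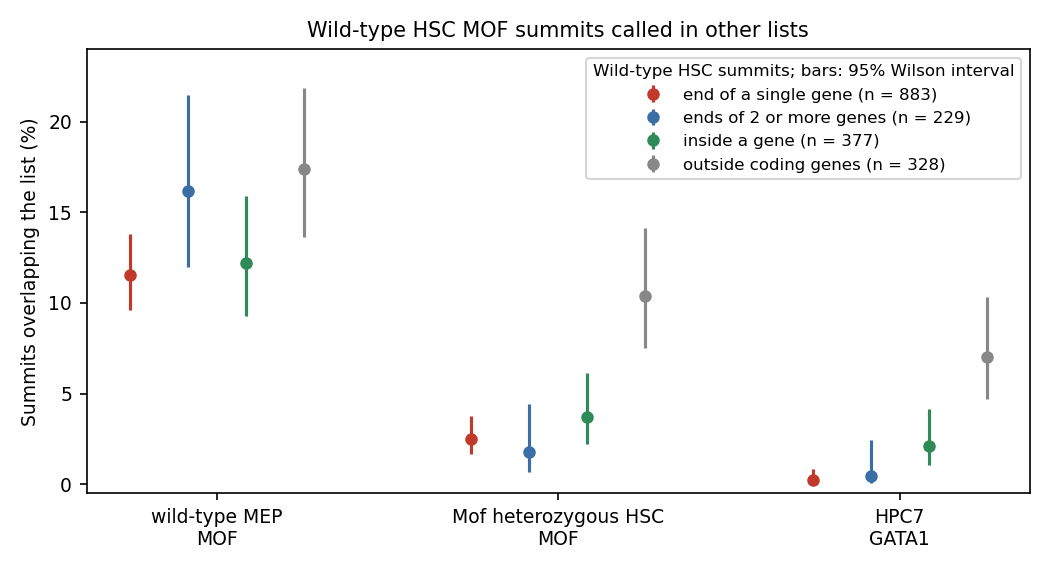
Share of wild-type HSC MOF summits that overlap a peak of 3 other lists (y axis, %), in 4 classes of position, with 95% Wilson intervals. Members lie at 11.6%, 2.49% and 0.227%, and summits outside coding genes at 17.4%, 10.4% and 7.01%.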

How the data were processed

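The authors deposited 1 peak list for each of 5 of the 12 samples. Per the submitters' processing notes, the build was mm10 and the tools were Bowtie2 2.3.0.1, MACS2 and deepTools. The sources used here state neither their settings nor a blacklist filter, nor the input behind each list. The deposited wild-type lists give a summit and a −log10 value in column 5. The deposited Mof -/+ lists are intervals with a score, a fold enrichment, and −log10 p and q values, per the order of their columns. The deposited GATA1 list has intervals and no values.

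Summits were assigned with RefSeq genes of GRCm38.p6. Strand came from the RefSeq promoter table, which held 17274 of 21631 coding genes and none on chromosome 18. Overlaps used extensions of 150 bp and at least 1 bp. Shares have 95% Wilson intervals, and 6 two-sided Fisher's exact tests were adjusted together (threshold 0.05). scipy 1.17.1, pandas 2.3.3 and statsmodels 0.14.6 on Python 3.11.15 were used, and the assignment was tested on simulated summits.

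Members, lists and motifs were chosen with earlier results of these data known. Genes named in the text were the 20 highest and 5 lowest members, up to 5 per list, those in Mof -/+ HSC, Mof -/+ MEP or GATA1 intervals, the 10 highest shared with MEP, genes with several summits, and 3 on each side of the window's limit. A few others (Eif5a, Ezh2, Eed, Usp3 in MEP, end-side members) were named after their values were seen. The 7 other samples were not analysed here.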

Additional observations from a re-analysis of the deposited data

How the results depend on the processing

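The alternatives were windows of 500 bp and 2 kb, a minimum of 2 on column 5, and other extensions and overlaps. Non-coding genes counted as neighbours and 2 smaller sets of other summits were tried too. Of the 65 values beside the 10 reported results, 55 were judged the same. For a tested difference this means an unchanged direction and call. A count had to stay within a set ratio, and the median or start share inside its main interval. Nearness to the start moved to 98.1% with the 500 bp window and 94.4% with the 2 kb window. Without summits found in 3 or 4 of the other lists, members minus all other summits was -2.62 percentage points for wild-type MEP (exact test, adjusted p = 0.32), -0.608 for Mof -/+ HSC (0.69) and -0.320 for GATA1 (0.50), and no call was left. A further set, chosen after seeing the data, took the single-gene summits of histone and ribosomal protein genes out of the other summits. It gave -3.44 points for MEP (exact test, adjusted p = 0.065) and kept both other calls. Summits at such a gene beside another coding gene stayed in, here and in the set at 2 or more genes. Against summits at 2 or more genes, the difference for MEP was -7.52 points with extensions of 500 bp, which passed the threshold. The sign turned for Mof -/+ HSC with the 500 bp window (-0.172 points) and for GATA1 with both windows (0.119 and 0.0269), none of which passed it. The cause of these shifts was not tested. For promoters with at least 20 CpG, an alternative chosen after seeing the data, the TATA box difference turned to 2.00 points.

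No paired analysis was possible because each group had 1 library. No replicate was left out for the same reason. Depth is unknown, so a member missing from a shorter list was not shown to lack MOF there, and the strand of 145 members was not in the table used.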
